A study of Rattus norvegicus with 4 samples.

Results

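Activated fibroblasts of the rat heart were taken here as nuclei of 2 single-nucleus libraries chosen by a rule on unique molecular identifiers (UMIs, 1 per captured RNA molecule). A nucleus entered with 500 or more UMIs and 300 or more genes if its mitochondrial share was no higher than 10%. It had to hold at least 4 UMIs from at least 2 of the 5 genes Adam12, Postn, Col8a1, Hmga2 and Ltbp2. Their sum had to reach 0.3% of its UMIs and exceed the sum over 6 genes of resting fibroblasts, Scara5, Abca8a, C7, C1qtnf7, Adgrd1 and Dlg2. Nuclei with 3 or more UMIs over 5 genes of dividing cells, Mki67, Top2a, Cenpf, Kif11 and Aspm, were left out. The rule found 1961 activated nuclei among the 22974 that passed the filters in libraries 3 and 4 and the 46590 that passed in the series, 1488 in library 3 and 473 in library 4. Resting fibroblasts, found by the same rule with both gene sets exchanged, numbered 811, of which 478 were in library 3 and 333 in library 4.

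The series profiled nuclei from the infarct zone of Sprague Dawley rats, with 1 library for each of 4 samples. Of these, 1 was a sham operation and 3 followed myocardial infarction, with 1, 6 and 24 h in their names. The labels count those hours as reperfusion and the series text counts them as ligation of the left anterior descending artery, so their meaning is unsettled, and the number of animals per library is not given in the sources used here. The libraries are told apart by barcode suffix only, and no label ties a suffix to a sample, so no comparison with sham or between times was made. Activated and resting nuclei were compared inside each library, which leaves 1 value per library, no replicate and no p-value.

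Cardiac fibroblasts keep up the collagen network of the heart wall, and after injury they leave their resting state, spread, divide and lay down a scar. Stretch and transforming growth factor beta (TGF-beta) are the best known triggers, and the activated cell makes periostin, tenascin and new collagens and tightens its actin cytoskeleton. Resting fibroblasts express genes of the adventitial and interstitial state, such as complement factors, decorin and gelsolin, many of which are known to decline on activation.

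The activated nuclei held medians of 2554 and 3083 UMIs in libraries 3 and 4, against 2141.5 and 2294 in resting nuclei, with mitochondrial medians of 0.943 and 0.845% in activated and 1.10 and 0.95% in resting nuclei. The 2 libraries held 16453 and 6521 filtered nuclei. Of the barcodes, 52 occurred in both libraries, and 23 members carried a barcode also found in another library, but 0 barcodes were members in both. Every class held RNA of other classes: 72.9% (70.6 to 75.2%) of activated nuclei in library 3 and 81.6% (77.8 to 85%) in library 4 held 3 or more UMIs of macrophage, endothelial, mural or cardiomyocyte markers, against 68.0 and 74.2% of resting nuclei. Subtracting the profile of the whole library until those markers reached 0 put free and foreign RNA at up to 54.0 and 51.0% of the UMIs of activated nuclei, against 57.8 and 47.0% of resting nuclei. Endothelial markers summed to 663 and 1512 CPM (UMIs of a gene per 1000000 UMIs of the summed class) in activated nuclei, against 595 and 879 CPM in resting nuclei, and 3 and 7 of 7 markers were higher in activated nuclei. Macrophage markers summed to 994 and 472 CPM in activated nuclei, against 1043 and 519 CPM in resting nuclei. Neutrophil markers summed to 817 and 410 CPM in activated and 1092 and 532 CPM in resting nuclei, and cardiomyocyte markers to 1522 and 2153 CPM in activated and 1723 and 2361 CPM in resting nuclei. Mural, Schwann, lymphocyte and epicardial markers summed to at most 397 CPM in either class. Of the 5 epicardial markers found, 1 and 3 were at 0 in activated nuclei of libraries 3 and 4, against 3 and 3 in resting nuclei, while no endothelial, macrophage, mural or cardiomyocyte marker was at 0. The part of this RNA in the results was not tested, except where values without such nuclei are given. All intervals are 95% intervals and cover counting error only.

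Both classes carried the fibroblast markers. Pdgfra, the receptor that marks cardiac fibroblasts, stood at 569 and 381 CPM in activated nuclei of libraries 3 and 4, against 791 and 597 CPM in resting nuclei, and at 78.3 and 45.5 CPM in endothelial nuclei. Dcn, encoding decorin, stood at 809.8 and 656 CPM in activated nuclei, against 2322 and 2223 CPM in resting nuclei, and the 8 fibroblast markers together at 8058 and 5434 CPM in activated nuclei, against 10892 and 8183 CPM in resting nuclei. In macrophage, endothelial, mural and cardiomyocyte nuclei that sum was 2241 to 3620 CPM in library 3 and 1130 to 1834 CPM in library 4. Tcf21, a transcription factor of resident fibroblasts, stood at 33.7 and 33.6 CPM in activated nuclei, against 82.6 and 61.1 CPM in resting nuclei. The share of activated nuclei among both classes was 75.7% (73.7 to 77.6%) in library 3 and 58.7% (55.2 to 62.1%) in library 4. As a share of all filtered nuclei, activated fibroblasts made up 9.04% (8.61 to 9.49%) and 7.25% (6.64 to 7.91%). Left to nuclei with fewer than 3 UMIs of each other class, the share among both classes was 72.5 and 50.3%.

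The members were selected on the UMIs of the rule genes, whose values describe them and are no result. Adam12, a metalloprotease of activated mesenchyme, stood at 1526 and 1343 CPM in activated nuclei of libraries 3 and 4, against 224 and 154 CPM in resting nuclei. Postn, encoding periostin, stood at 1051 and 974 CPM in activated nuclei, against 523 and 383 CPM in resting nuclei, and Col8a1, a short-chain collagen, at 2419.8 and 2619.7 CPM in activated nuclei, against 881 and 572 CPM in resting nuclei. Hmga2, a chromatin protein of growing tissue, stood at 205 and 353 CPM in activated nuclei, against 25.9 and 20.4 CPM in resting nuclei, and Ltbp2, a protein of elastic microfibrils, at 588 and 815 CPM in activated nuclei, against 127 and 106 CPM in resting nuclei. On the other side, C7, the complement component, stood at 564 and 483 CPM in activated nuclei, against 2811 and 2922 CPM in resting nuclei, and Scara5, a ferritin receptor, at 33.9 and 26.9 CPM in activated nuclei, against 229 and 311 CPM in resting nuclei. All 5 rule genes were seen in 11.4 and 18.4% of members, 4 of them in 39.9 and 42.5%, and just 2 in 12.9 and 14.8%. Members held a median of 15 and 20 UMIs of the 5 genes, and 27.2 and 32.3% of them held no UMI of the 6 resting genes. Among the 82 and 17 members with exactly 4 rule UMIs, Tnc stood at 111 and 205 CPM, against 182 and 354 CPM in the 61 and 30 nuclei that missed the rule with 3 UMIs. Among the 391 and 105 members at 0.3 to under 0.4% of their UMIs, it stood at 348 and 258 CPM, against 255 and 196 CPM in the 485 and 140 nuclei just outside at 0.2 to under 0.3%. Nuclei just outside both thresholds thus held Tnc too. Some of these groups are small, and the values are of a single gene without intervals. Whether the rule cuts a range of nuclei or a gap was not tested.

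Between activated and resting nuclei, 90 of 10159 genes tested (0.886%) were at least 2-fold higher and 130 (1.28%) at least 2-fold lower in both libraries, leaving the 16 rule genes out. The same contrast chose the nuclei, so these counts are a description. A gene was tested with 30 or more UMIs over both classes in each library, and 2-fold means a difference of 1 in log2(CPM + 10), which understates changes of low genes. The median over all genes was 0.04 and 0.06 on that scale. Of the genes called, 49 higher and 53 lower ones had a gene symbol and 100 or more UMIs in that fibroblast class in each library. They also had no higher level in macrophage, endothelial, mural or cardiomyocyte nuclei. The other called genes missed at least 1 of these conditions, which need not be the level in another class. In the 403 and 87 activated and 153 and 86 resting nuclei with fewer than 3 UMIs of each of those classes, 2949 genes had enough UMIs, and 71 were higher, 37 of them among the 90. After subtraction of free RNA, 593 genes were higher and 347 lower.

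**Figure D1:**
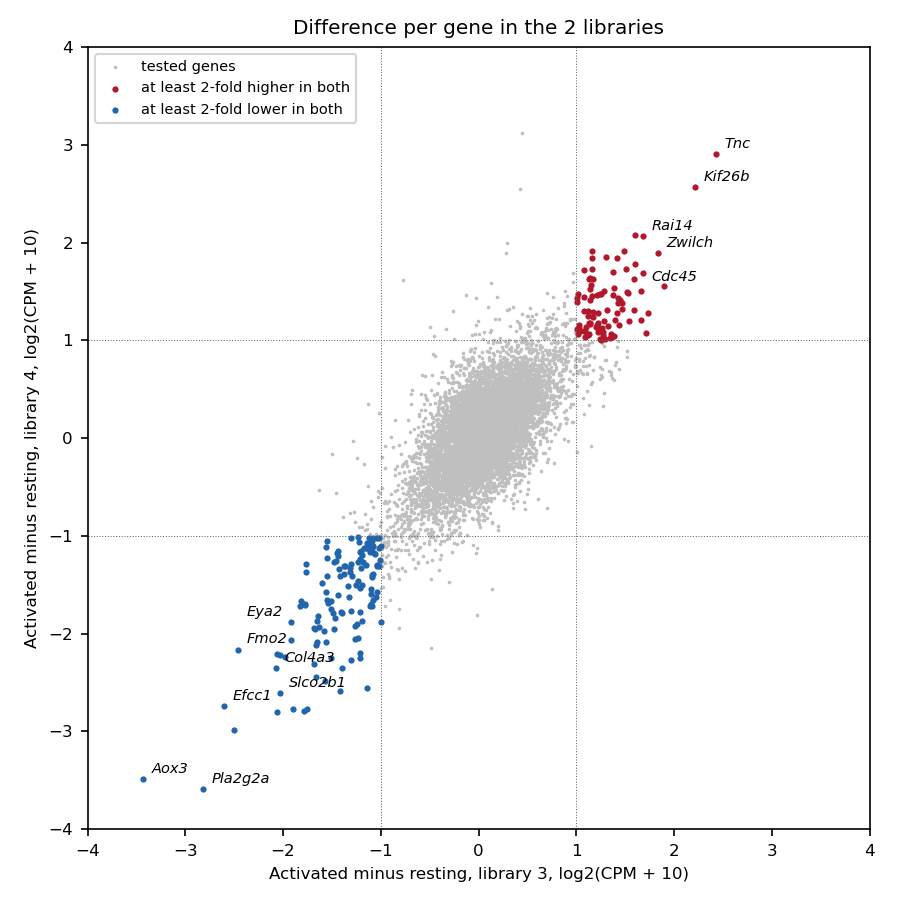
Difference between activated and resting fibroblasts in library 3 (x axis) and library 4 (y axis), both in log2(CPM + 10), with 1 point per gene tested. The 90 genes at least 2-fold higher in both libraries are red, the 130 at least 2-fold lower are blue, and Tnc lies at the upper end and Aox3 at the lower end.

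The 16 named higher genes included matricellular and matrix-linked signalling genes. Tnc, encoding the transient scar glycoprotein tenascin-C, stood at 445 and 483 CPM in activated nuclei of libraries 3 and 4, against 74.5 and 55.7 CPM in resting nuclei. It was 5.97-fold (4.84 to 7.44) and 8.67-fold (6.56 to 11.7) higher in activated nuclei. Ccn2, encoding connective tissue growth factor, a target of the Hippo pathway factors YAP and TEAD, stood at 539 and 708 CPM in activated nuclei, against 171 and 199 CPM in resting nuclei, 3.16-fold (2.74 to 3.65) and 3.55-fold (3.04 to 4.16) higher. Both genes were named for this difference, so the gap between the intervals of the 2 classes in each library is set by that choice. Inhba, encoding the activin A subunit, stood at 66.2 and 56.4 CPM in activated nuclei, against 18.6 and 8.58 CPM in resting nuclei, 3.55-fold (2.32 to 5.69) and 6.57-fold (3.22 to 15.6) higher.

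Others belong to the cytoskeleton, transcription and signalling. Kif26b, an atypical kinesin, stood at 145 and 150.4 CPM in activated nuclei of libraries 3 and 4, against 23.5 and 17.2 CPM in resting nuclei, 6.2-fold (4.28 to 9.33) and 8.77-fold (5.31 to 15.6) higher. Rai14, an actin-binding ankyrin protein, stood at 399 and 657 CPM in activated nuclei, against 117 and 149 CPM in resting nuclei, and endothelial nuclei held it at 374 and 532 CPM. Bnc2, a zinc finger protein of matrix-producing fibroblasts, stood at 561 and 455 CPM in activated nuclei, against 191 and 131 CPM in resting nuclei, 2.94-fold (2.57 to 3.37) and 3.48-fold (2.88 to 4.24) higher. Ripk2, a kinase of innate immune signalling, stood at 172 and 199 CPM in activated nuclei, against 57.5 and 67.5 CPM in resting nuclei.

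The rest of the higher genes named here copy or repair DNA or build kinetochores, although nuclei with 3 or more dividing-cell UMIs had been left out. Cdc45, part of the replicative helicase, stood at 76.5 and 70.8 CPM in activated nuclei of libraries 3 and 4, against 17.0 and 15.0 CPM in resting nuclei, 4.50-fold (2.90 to 7.36) and 4.72-fold (2.72 to 8.86) higher. Brip1 and Brca1, partners in repair by homologous recombination, were both higher. Brip1 stood at 134 and 100.3 CPM in activated nuclei, against 38.0 and 25.7 CPM in resting nuclei. Brca1 stood at 112 and 87.9 CPM in activated nuclei, against 32.4 and 24.7 CPM in resting nuclei. Blm, the helicase mutated in Bloom syndrome, stood at 77.6 and 75.0 CPM in activated nuclei, against 22.7 and 22.5 CPM in resting nuclei, and Mms22l, which protects stalled forks, at 109 and 103 CPM in activated nuclei, against 35.6 and 28.9 CPM in resting nuclei. Zwilch, of the kinetochore complex with ROD, was 4.52-fold (3.18 to 6.63) and 5.05-fold (3.15 to 8.57) higher, and Kntc1, which encodes ROD, 3.24-fold (2.36 to 4.58) and 3.32-fold (2.15 to 5.32) higher. Cenph, an inner kinetochore protein, was 3.44-fold (2.44 to 5.00) and 6.37-fold (3.36 to 13.6) higher. In nuclei with no dividing-cell UMI at all, 43.3 and 59.6% of activated and 56.9 and 82.3% of resting ones, Cdc45 was still 1.77 and 1.66 higher in log2(CPM + 10), Brip1 1.74 and 1.43, Brca1 1.31 and 1.20 and Blm 1.02 and 1.28. The dividing-cell genes themselves differed less, with Mki67 at 96.0 and 36.2 CPM in activated nuclei, against 89.8 and 24.7 CPM in resting nuclei and Top2a at 79.6 and 50.2 CPM in activated nuclei, against 70.4 and 25.7 CPM in resting nuclei. They took part in the rule, with 1 or 2 UMIs in 56.7 and 40.4% of activated nuclei.

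**Figure D2:**
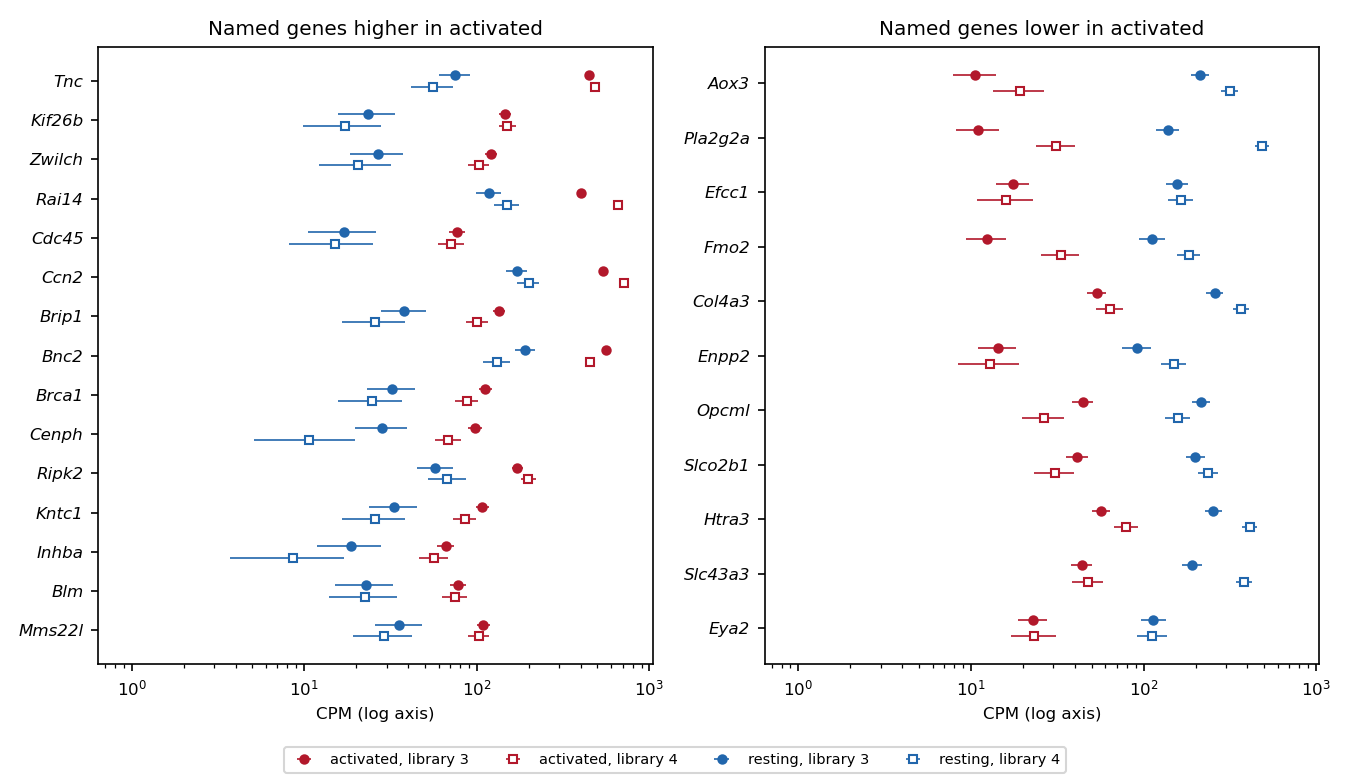
Levels in CPM (log axis) of 15 named genes higher (left) and 11 named genes lower (right) in activated fibroblasts, red for activated and blue for resting, filled circles for library 3 and open squares for library 4. Bars are 95% Poisson intervals. The genes run from Tnc at 445 and 483 CPM in activated nuclei to Eya2 at 22.9 and 23.3 CPM. They were named for their difference, so the gap between the classes is set by that choice.

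Promoter sequences are given for the 4 genes with the highest smaller difference that have an entry in RefSeq's table, and for Ccn2, added because of the matches found in it. Each is the 250 bases before the start in the assembly GRCr8, 5′ to 3′ on the strand of the gene, with matches of the TEAD motif in capitals.
Tnc, chr5:82476132-82476381, minus strand: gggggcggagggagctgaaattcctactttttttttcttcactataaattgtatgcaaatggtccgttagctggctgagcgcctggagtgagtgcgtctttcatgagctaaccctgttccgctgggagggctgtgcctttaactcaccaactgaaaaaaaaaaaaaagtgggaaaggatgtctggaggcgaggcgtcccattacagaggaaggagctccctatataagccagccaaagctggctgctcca
Kif26b, chr13:92815177-92815426, plus strand: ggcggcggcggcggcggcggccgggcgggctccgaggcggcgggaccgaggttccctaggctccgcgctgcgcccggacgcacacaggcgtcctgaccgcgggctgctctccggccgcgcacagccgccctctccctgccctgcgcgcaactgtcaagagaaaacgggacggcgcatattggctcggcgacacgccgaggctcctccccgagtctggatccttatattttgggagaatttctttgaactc
Rai14, chr2:61409792-61410041, minus strand: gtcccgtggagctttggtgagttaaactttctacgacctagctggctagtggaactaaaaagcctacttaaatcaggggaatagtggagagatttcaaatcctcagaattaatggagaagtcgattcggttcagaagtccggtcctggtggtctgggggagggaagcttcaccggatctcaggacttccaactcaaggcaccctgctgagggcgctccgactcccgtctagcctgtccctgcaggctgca
Cdc45, chr11:95689928-95690177, plus strand: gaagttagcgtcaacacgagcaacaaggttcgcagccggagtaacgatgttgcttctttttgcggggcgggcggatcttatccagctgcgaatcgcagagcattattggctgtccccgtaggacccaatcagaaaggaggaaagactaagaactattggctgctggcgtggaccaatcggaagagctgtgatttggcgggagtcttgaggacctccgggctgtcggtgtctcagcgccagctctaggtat
Ccn2, chr1:22624615-22624864, minus strand: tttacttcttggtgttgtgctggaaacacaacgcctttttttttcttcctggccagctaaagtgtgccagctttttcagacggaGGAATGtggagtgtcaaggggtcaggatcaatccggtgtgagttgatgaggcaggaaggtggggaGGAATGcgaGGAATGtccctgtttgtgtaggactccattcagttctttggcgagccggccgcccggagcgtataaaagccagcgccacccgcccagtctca
Of the 16 named higher genes, 12 have an entry. On both strands, the AP-1 motif TGANTCA occurs in 0 of the 12, against 6.34% of all 33469 promoters in the table. The TEAD motif GGAATG occurs in 1 of the 12, against 12.1% of all promoters. That one is Ccn2, which holds 3 copies starting 166, 101 and 92 bases before the start. The E-box CANNTG occurs in 5 of the 12, against 65.5% of all promoters. The motifs do not share bases with one another in Ccn2, which holds no match of AP-1 or the E-box. A match is a description of letters in this window and no evidence of binding.

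Among collagens, minor chains were called and the main fibrillar ones were not. Of 17 collagens tested, 2 were at least 2-fold higher and 0 lower in both libraries, 10 lay above 0 and 4 below 0 in both, and the medians were 0.24 and 0.34. Of all genes, 0.886% were called higher and 1.28% lower, 41.8% lay above 0 in both and 29.4% below. These shares are the background for the counts of every list below. Col12a1, a fibril-associated collagen of loaded tissue, stood at 232 and 162 CPM in activated nuclei of libraries 3 and 4, against 77.7 and 59.0 CPM in resting nuclei. A class other than fibroblasts held Col12a1 at a higher level than activated nuclei in library 3, library 4 or both. Col27a1, a fibrillar collagen of cartilage, stood at 64.9 and 92.0 CPM in activated nuclei, against 23.5 and 17.2 CPM in resting nuclei. Col5a2 and Col5a3, minor fibrillar chains, differed by 0.77 and 0.83 and by 1.11 and 0.91 in log2(CPM + 10). The main fibrillar genes differed less. Col1a1 stood at 1932 and 1320.5 CPM in activated nuclei, against 1715 and 1249.8 CPM in resting nuclei, with ratios of 1.13 (1.07 to 1.18) and 1.06 (0.985 to 1.13). Col3a1 stood at 4446 and 2863 CPM in activated nuclei, against 5445 and 3514 CPM in resting nuclei, with ratios of 0.817 (0.794 to 0.840) and 0.815 (0.780 to 0.851). Col14a1 and Col15a1, collagens of resting interstitium and basement membrane, differed by -0.83 and -1.35 and by -1.14 and -0.88. Col1a2 had 35 and 19 UMIs in activated and 7 and 6 in resting nuclei, under the minimum in library 4.

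Enzymes of collagen maturation gave 0 calls among 18 and medians of 0.25 and 0.33. Loxl2, a lysyl oxidase that crosslinks collagen, was 1.72-fold (1.46 to 2.04) and 1.72-fold (1.38 to 2.15) higher, and Plod2, the telopeptide lysyl hydroxylase, 1.57-fold (1.44 to 1.72) and 1.64-fold (1.47 to 1.84) higher. Of 24 glycoproteins and elastic fibre genes, 5 were called higher, Tnc, Ccn2, Ccn4, Ccn1 and Thbs1, and 2 lower, Efemp1 and Fbln1. The shares over all genes were 0.886% called higher and 1.28% lower. Thbs1, which activates latent TGF-beta, stood at 215 and 190.3 CPM in activated nuclei, against 102 and 82.5 CPM in resting nuclei. Fbln1, encoding fibulin-1, stood at 75.9 and 51.7 CPM in activated nuclei, against 245 and 336 CPM in resting nuclei. Fn1, encoding fibronectin, stood at 1408 and 814 CPM in activated nuclei, against 1399.5 and 633 CPM in resting nuclei, with ratios of 1.01 (0.954 to 1.06) and 1.28 (1.17 to 1.41). The medians of this list differ in sign, -0.05 and 0.31. Of 16 proteoglycans, 0 were called higher and 2 lower, Dcn and Sulf2. Bgn, encoding biglycan, was 1.29-fold (1.19 to 1.40) and 1.51-fold (1.33 to 1.72) higher, whereas Dcn, its close relative, had ratios of 0.349 (0.332 to 0.366) and 0.295 (0.275 to 0.317).

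Matrix-degrading genes went both ways, with 1 of 20 proteases and inhibitors called higher and 1 lower. Mmp16, a membrane-type metalloprotease, stood at 61.0 and 66.2 CPM in activated nuclei, against 11.3 and 21.4 CPM in resting nuclei, 5.38-fold (3.15 to 9.97) and 3.09-fold (1.92 to 5.22) higher. Adamts5, an aggrecanase, stood at 140.1 and 97.7 CPM in activated nuclei, against 346 and 392 CPM in resting nuclei, and Mmp2, gelatinase A, at 151 and 111 CPM in activated nuclei, against 294 and 312 CPM in resting nuclei, which in library 3 falls short of 2-fold. Of 18 integrins and adhesion genes, 0 were called higher and 1 lower, Cadm3, with ratios of 0.263 (0.208 to 0.334) and 0.241 (0.182 to 0.318). Cd44, the hyaluronan receptor, was 1.36-fold (1.19 to 1.56) and 2.34-fold (1.87 to 2.94) higher, short of the call in library 3.

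Most contractile genes lay above 0, with 1 call. Of 18 tested, 17 lay above 0 in both libraries, where 41.8% of all genes did, 1 was called higher and 0 lower, and the medians were 0.44 and 0.63. Actn1, encoding the crosslinker alpha-actinin 1, was 2.45-fold (2.16 to 2.79) and 2.22-fold (1.93 to 2.55) higher. A class other than fibroblasts held Actn1 at a higher level than activated nuclei in library 3, library 4 or both. Vcl, encoding vinculin of focal adhesions, differed by 0.81 and 0.80 and Itga5, the fibronectin receptor chain, by 0.77 and 0.81 in log2(CPM + 10). Acta2, encoding the smooth muscle actin of myofibroblasts, was low, at 34.4 and 37.2 CPM in activated nuclei, against 16.2 and 17.2 CPM in resting nuclei, 2.12-fold (1.33 to 3.57) and 2.17-fold (1.25 to 4.00) higher. Mylk, myosin light chain kinase, was the member below 0, with ratios of 0.534 (0.392 to 0.735) and 0.617 (0.444 to 0.860). Mural markers summed to 227 and 375 CPM in activated nuclei, against 281 and 397 CPM in resting nuclei.

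Of 24 TGF-beta pathway genes, 2 were called higher, Inhba among them, and 0 lower, against 0.886 and 1.28% of all genes. The list medians were 0.11 and 0.18. Among ligands, Tgfb1 was 1.24-fold (1.02 to 1.51) and 1.52-fold (1.17 to 2.00) higher and Tgfb2 differed by 1.00 and 0.53. Among receptors, the betaglycan gene Tgfbr3 stood at 338 and 385 CPM in activated nuclei, against 667 and 951 CPM in resting nuclei, and Tgfbr2 differed by -0.52 and -0.66. Ltbp4, which stores latent TGF-beta, had ratios of 0.534 (0.483 to 0.591) and 0.490 (0.430 to 0.558). Smad7, the feedback inhibitor, differed by 0.72 and 0.65.

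Transcription factors were called in both directions. Of 38 tested, 4 were called higher, Runx1, Runx2, Glis3 and Foxp1, and 3 lower, Tbx20, Sox9 and Etv1, against 0.886 and 1.28% of all genes. The list medians were 0.02 and 0.06. Runx1, a Runt-domain factor of blood and injured tissue, stood at 587 and 459.6 CPM in activated nuclei of libraries 3 and 4, against 214 and 183 CPM in resting nuclei, 2.75-fold (2.42 to 3.13) and 2.51-fold (2.13 to 2.97) higher. Macrophage nuclei held Runx1 as well, at 492 and 507 CPM. Runx2, the master factor of bone, stood at 205 and 215 CPM in activated nuclei, against 80.9 and 70.7 CPM in resting nuclei, 2.53-fold (2.06 to 3.14) and 3.03-fold (2.33 to 3.99) higher. Tbx20, a cardiac T-box factor, stood at 170.4 and 204 CPM in activated nuclei, against 372 and 449 CPM in resting nuclei. Gli2, an effector of Hedgehog signalling, had ratios of 0.474 (0.396 to 0.569) and 0.375 (0.301 to 0.465). Meox1, a homeobox factor of activated fibroblasts, had 32 and 35 UMIs in activated nuclei, with ratios of 0.777 (0.382 to 1.71) and 3.38 (1.32 to 11) that lie on opposite sides of 1.

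Lists of growth and biosynthesis gave 0 to 2 calls each, counts too small to be read against the shares of all genes. Their members lay above 0 in both libraries to differing extents, against 41.8% of all genes. Of 20 cell cycle genes that the rule did not use, 2 were called higher, Mcm3 and Mcm5 of the replicative helicase ring, and 0 lower. The shares over all genes were 0.886% called higher and 1.28% lower. The list medians were 0.58 and 0.46, with 16 members above 0 in both libraries. Mcm5 stood at 69.0 and 63.6 CPM in activated nuclei, against 27.5 and 17.2 CPM in resting nuclei, and Ccnd1, encoding cyclin D1, at 141 and 117 CPM in activated nuclei, against 77.7 and 51.5 CPM in resting nuclei. Cdkn1b, encoding the inhibitor p27, went the other way, with ratios of 0.534 (0.413 to 0.695) and 0.490 (0.342 to 0.701). Of 19 genes of ribosome making, 18 lay above 0 in both libraries and 0 were called, with medians of 0.55 and 0.67. Ddx21, a nucleolar helicase, was 1.81-fold (1.49 to 2.23) and 2.37-fold (1.77 to 3.22) higher, and Myc, the growth factor-driven regulator of this set, 2.93-fold (1.89 to 4.76) and 1.61-fold (1.10 to 2.40) higher. Of 15 genes of amino acid supply, 14 lay above 0 in both and 0 were called, with medians of 0.25 and 0.56. Slc1a5, the glutamine carrier, was 1.81-fold (1.47 to 2.25) and 2.36-fold (1.70 to 3.34) higher, and Slc7a1, a carrier of arginine and lysine, 2.01-fold (1.61 to 2.52) and 2.12-fold (1.66 to 2.74) higher. Of 20 hypoxia and glycolysis genes, 1 was called higher, Hk2, encoding hexokinase 2, at 297 and 259 CPM in activated nuclei, against 131 and 103 CPM in resting nuclei, with list medians of 0.19 and 0.16 and 12 members above 0 in both libraries. A class other than fibroblasts held Hk2 at a higher level than activated nuclei in library 3, library 4 or both. The 26 secretory pathway genes gave 0 calls, 12 members above 0 in both libraries and medians of 0.05 and 0.13, near those of all genes. Hspa5, the chaperone BiP, had ratios of 1.04 (0.973 to 1.11) and 1.63 (1.47 to 1.81).

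The inflammatory and stress lists gave 1 or 2 calls each. In lists this small, 1 call already lies above the shares of all genes, 0.886% called higher and 1.28% lower. Of 20 cytokine and inflammation genes, 11 lay above 0 and 5 below in both libraries, near the 41.8 and 29.4% of all genes, and 1 was called higher, Ptgs2. This gene, encoding cyclooxygenase 2, stood at 56.0 and 78.1 CPM in activated nuclei, against 15.4 and 17.2 CPM in resting nuclei, 3.64-fold (2.28 to 6.15) and 4.55-fold (2.71 to 8.17) higher. A class other than fibroblasts held Ptgs2 at a higher level than activated nuclei in library 3, library 4 or both. Il1rl2, the interleukin 36 receptor, had 119 and 35 UMIs in activated nuclei and 10 and 3 in resting nuclei, with ratios of 3.18 (1.67 to 6.80) and 5.63 (1.77 to 28.6). Of 12 complement and interferon genes, 0 lay above 0 in both libraries and 9 below, against 41.8 and 29.4% of all genes. Of these 12, 2 were called lower, against 1.28% of all genes, and the medians were -0.27 and -0.45. C1s, the complement protease, stood at 114 and 109.6 CPM in activated nuclei, against 361 and 459 CPM in resting nuclei, and its inhibitor Serping1 at 50.4 and 43.4 CPM in activated nuclei, against 168 and 218 CPM in resting nuclei. Cxcl12, the chemokine that retains blood stem cells, differed by -0.30 and -0.60. Of 19 immediate early and stress genes, 1 was called higher, Fosl1, a partner of Jun in AP-1, at 40.2 and 45.0 CPM in activated nuclei, against 10.5 and 17.2 CPM in resting nuclei. Klf4, a zinc finger factor of quiescent cells, differed by -0.67 and -0.76, and Ier3, an early response gene, by 0.51 and 0.60.

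Signalling lists outside the TGF-beta pathway gave 0 or 1 call each, counts too small to be read against the shares of all genes. Of 24 growth factors and receptors, 0 were called higher and 1 lower, Fgf10, made by mesenchyme for epithelia, with ratios of 0.327 (0.234 to 0.458) and 0.180 (0.105 to 0.298). Igf1, insulin-like growth factor 1, had ratios of 0.548 (0.475 to 0.634) and 0.241 (0.2 to 0.290), and Hgf, hepatocyte growth factor, of 1.83 (1.29 to 2.68) and 3.03 (1.83 to 5.29). Nrg1, encoding the ERBB ligand neuregulin, differed by 0.45 and 3.12, and in library 4 the members rich in endothelial RNA held it at 898 CPM, against 76.5 CPM in the other members. The 20 Wnt and Hippo genes and the 22 of axon guidance and migration gave 0 calls, with medians of 0.09 and 0.20 and of -0.15 and 0.11. Tead2, a TEAD factor of the Hippo pathway, differed by 0.63 and 0.95 and Fzd4, a Wnt receptor, by -0.76 and -0.80. Sfrp1, a secreted Wnt antagonist, differed in sign between libraries, at -1.01 and 0.26. Efnb2, the ligand ephrin-B2, differed by 0.53 and 0.81, and Ntn4, encoding netrin-4, by -0.78 and -0.73. Of 20 cartilage and bone genes, 4 had enough UMIs, and 1 was called higher, Enpp1, which makes the mineral inhibitor pyrophosphate, at 190.2 and 229 CPM in activated nuclei, against 80.9 and 72.9 CPM in resting nuclei.

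Genes of the resting state were called in 1 direction. Of 21 genes of resting fibroblasts outside the rule, 8 were called lower and 0 higher in both libraries, against 1.28 and 0.886% of all genes. Of the 21, 18 lay below 0 in both, where 29.4% of all genes did, and the medians were -0.83 and -1.10. Mgp, encoding the matrix Gla protein that blocks calcification, stood at 908 and 1084 CPM in activated nuclei of libraries 3 and 4, against 3124 and 3558 CPM in resting nuclei. Gsn, encoding the actin-severing gelsolin, stood at 515 and 389 CPM in activated nuclei, against 1637 and 1681 CPM in resting nuclei, with ratios of 0.315 (0.297 to 0.334) and 0.231 (0.212 to 0.253). Pi16, a marker of adventitial progenitors, stood at 70.7 and 49.6 CPM in activated nuclei, against 203 and 295 CPM in resting nuclei, and Cd34, a sialomucin of the same cells, at 50.2 and 56.4 CPM in activated nuclei, against 147 and 164 CPM in resting nuclei. Efna5 and Lsamp were the members above 0, at 0.73 and 0.41 and at 0.07 and 0.72.

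Enzymes of drug and lipid handling were among the 12 named lower genes. Aox3, an aldehyde oxidase, stood at 10.6 and 19.1 CPM in activated nuclei of libraries 3 and 4, against 212 and 316 CPM in resting nuclei, with ratios of 0.05 (0.0360 to 0.0680) and 0.0605 (0.0418 to 0.0853). Fmo2, a flavin monooxygenase, stood at 12.3 and 33.1 CPM in activated nuclei, against 113 and 183 CPM in resting nuclei. Pla2g2a, a secreted phospholipase, stood at 11 and 31.0 CPM in activated nuclei, against 138 and 486 CPM in resting nuclei, and Enpp2, encoding autotaxin, which makes lysophosphatidic acid, at 14.3 and 12.9 CPM in activated nuclei, against 91.5 and 150.1 CPM in resting nuclei. All 4 were named for their difference, so that the activated intervals lie below the resting intervals in both libraries is set by that choice. Col4a3, a chain of basement membrane collagen, stood at 53.6 and 64.1 CPM in activated nuclei, against 258 and 369 CPM in resting nuclei, and Htra3, a secreted serine protease, at 56.9 and 79.6 CPM in activated nuclei, against 253 and 413 CPM in resting nuclei. Slco2b1, an organic anion carrier, had ratios of 0.207 (0.171 to 0.252) and 0.129 (0.0949 to 0.172), and Slc43a3, a purine base carrier, of 0.230 (0.189 to 0.278) and 0.124 (0.0977 to 0.157). Opcml, a cell adhesion protein, had ratios of 0.205 (0.170 to 0.247) and 0.167 (0.119 to 0.232), Eya2, a transcriptional coactivator, of 0.201 (0.155 to 0.260) and 0.207 (0.142 to 0.296), and Efcc1 of 0.112 (0.0850 to 0.145) and 0.0977 (0.0642 to 0.145).

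**Figure D3:**
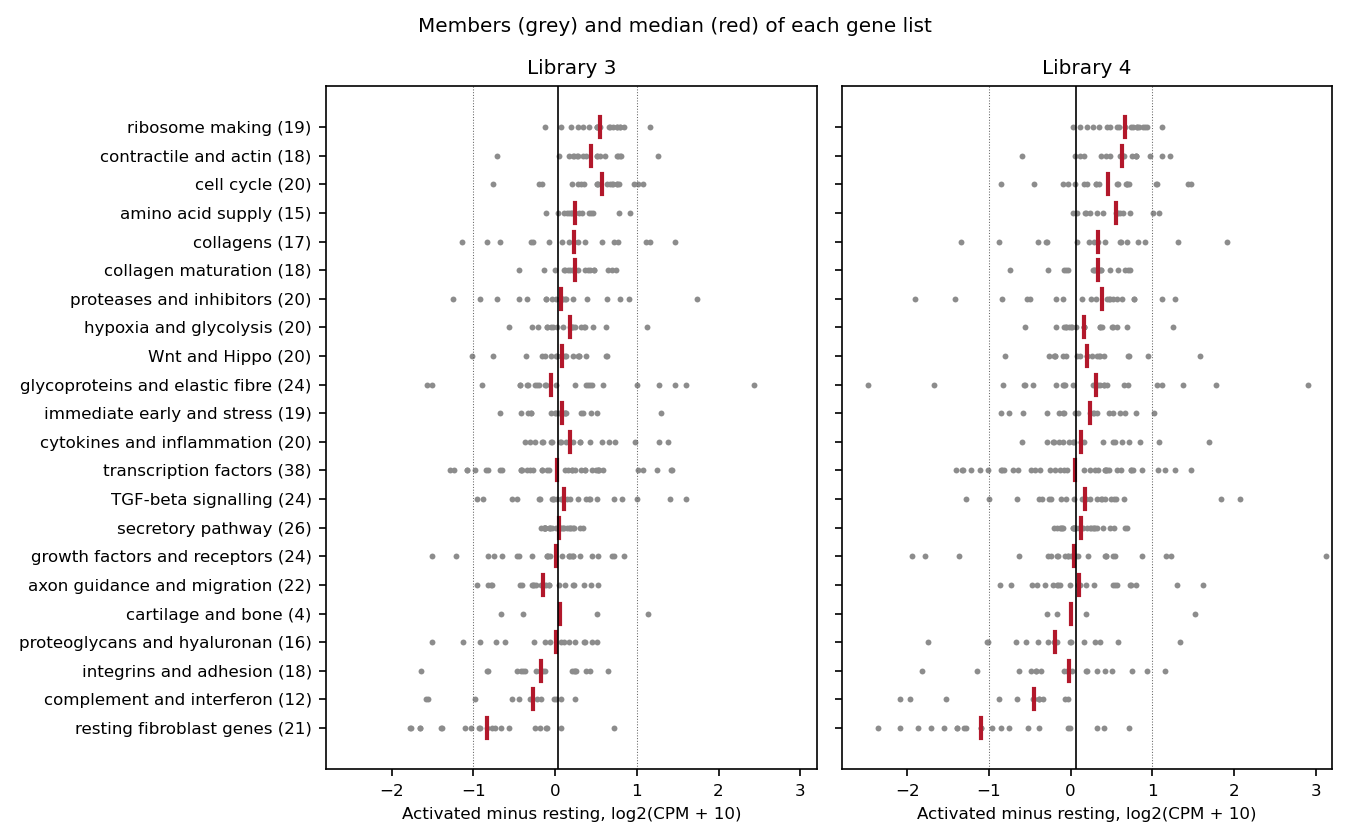
Activated minus resting in log2(CPM + 10) for the members of 22 gene lists (grey points, number tested in brackets) in library 3 (left) and library 4 (right), with the list median in red and the median of all genes as a black line. Medians of ribosome making, contractile and cell cycle genes lie above the line of all genes in both libraries, and resting fibroblast genes lie lowest, with medians of -0.83 and -1.10.

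Members were also split by whether they held a UMI of the 6 resting genes, which the rule used, so the values of either side are a description. Activated nuclei without a UMI of the 6 resting genes numbered 404 and 153 and were shallower, at medians of 1747.5 and 2246 UMIs, than the 1084 and 320 with such a UMI, at 2924 and 3650.5. Tnc reached 527 and 529.8 CPM in members without resting UMIs, against 427 and 469.9 CPM in the members with them, and resting nuclei that held activated UMIs had 73.9 and 61.5 CPM. Inhba stood at 123 and 106 CPM in members without resting UMIs, against 53.6 and 42.1 CPM in those with them. Dcn went the other way, at 594 and 378 CPM in members without resting UMIs, against 858 and 737 CPM in those with them. The main fibrillar collagens were lower in members without resting UMIs than in those with them, and likewise lower in resting nuclei without activated UMIs than in those with them. Col3a1 stood at 2996 and 1410.5 CPM in members without resting UMIs, against 4768 and 3285 CPM in members with them. In resting nuclei it stood at 3936 and 2589 CPM without activated UMIs and 5595 and 3672 CPM with them. Col1a1 had 1583 and 794 CPM in members without resting UMIs, against 2009.7 and 1474 CPM in those with them, and resting nuclei had 1425 and 1060.5 CPM without activated UMIs and 1744 and 1282 CPM with them. Pdgfra was also lower in members without resting UMIs, at 399 and 303 CPM, against 607 and 403 CPM in those with them. In resting nuclei it went the other way, at 986 and 629 CPM without activated UMIs and 771 and 592 CPM with them. Depth and the level of this fibroblast marker differ between these groups, and their part in the differences was not tested.

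**Figure D4:**
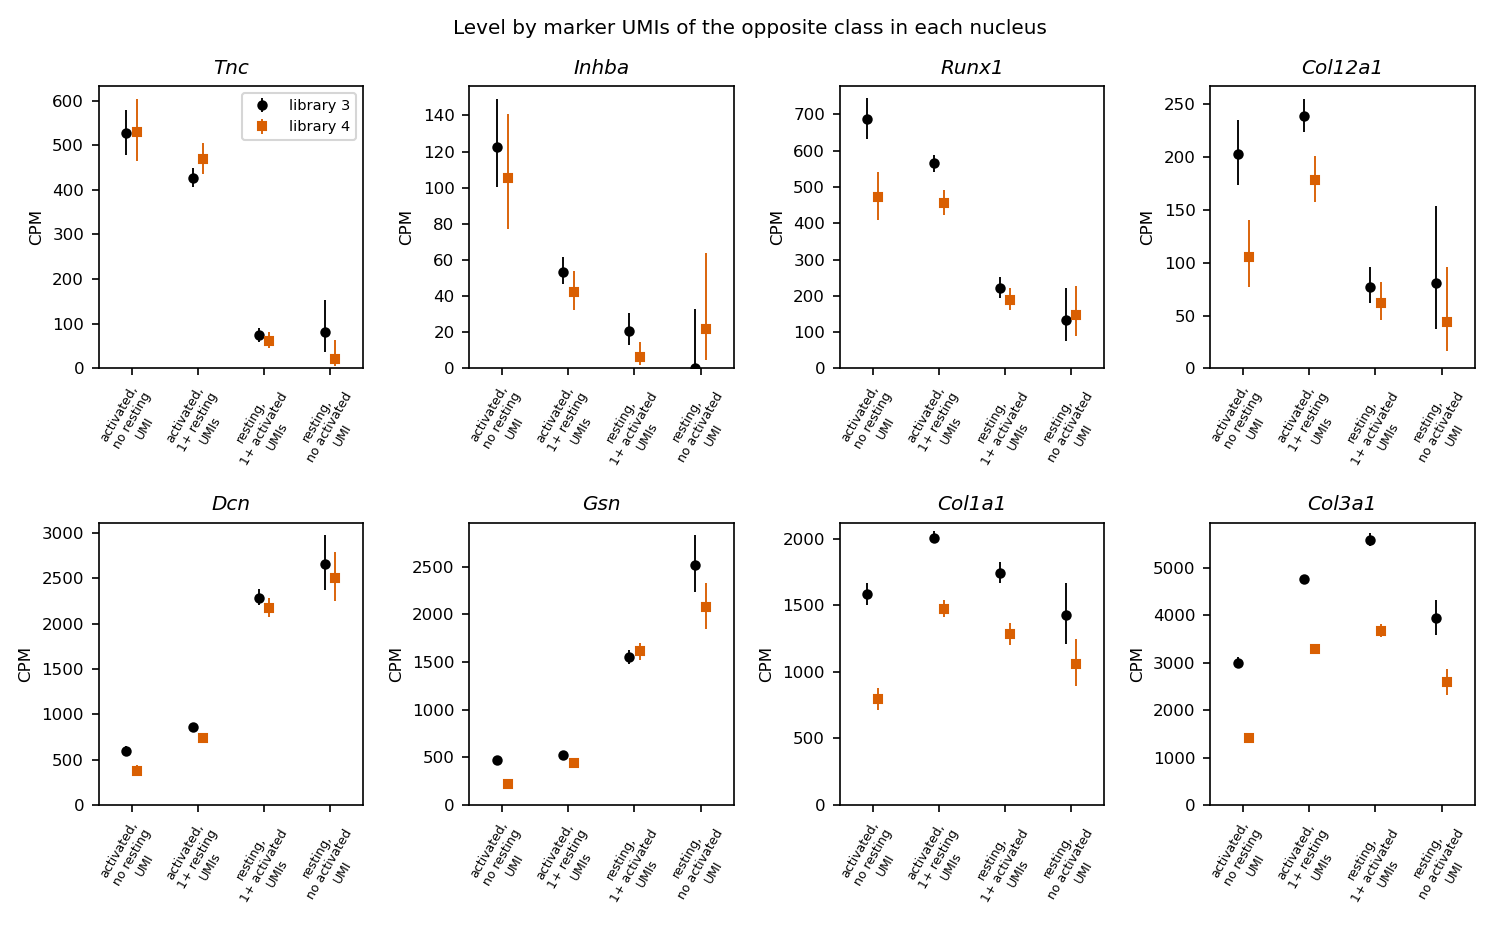
CPM of 8 genes in activated nuclei without and with UMIs of the 6 resting genes and in resting nuclei with and without UMIs of the 5 activated genes, from left to right, with 95% Poisson intervals, black circles for library 3 and orange squares for library 4. Tnc, Inhba and Runx1 drop between the activated and resting groups, Dcn and Gsn climb, and Col3a1 is lowest at the left end, at 2996 and 1410.5 CPM.

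Members also varied singly beyond counting noise for a few genes. With each nucleus thinned to 1000 UMIs, the variance over the mean had a median of 1.04 and 1.05 over 1043 genes with a mean of at least 0.05. Tnc was first, at 6.07 and 3.71, so its UMIs were spread over the members less evenly than counting alone gives. Col3a1 at 3.06 and 3.29, Tmeff2 at 2.48 and 2.37 and Ccn2 at 2.22 and 2.82 were among the next. A UMI of Tnc was seen in 33.2 and 41.0% of activated nuclei, against 15.5 and 10.8% of resting nuclei and 12.5 and 11.2% of endothelial nuclei, whose median depths were 2070 and 2794 UMIs. At 1000 UMIs per nucleus those shares were 19.8 and 21.4% of activated, 6.52 and 4.98% of resting and 5.95 and 3.72% of endothelial nuclei, after leaving out 51 and 34, 18 and 12, and 97 and 129 shallower nuclei of those classes. The intervals of the resting and endothelial shares overlap, at 4.44 to 9.18% and 4.94 to 7.10% in library 3. In CPM, Tnc stood at 60.9 and 36.5 in endothelial nuclei and 78.3 and 67.2 in macrophage nuclei, so the resting level lay between those of 2 other classes. How much of the resting Tnc is free RNA was not tested, and the folds of activated over resting nuclei include it. Cdc45 was seen in 18.6 and 21.6% of activated, 3.97 and 3.90% of resting and 3.57 and 3.89% of endothelial nuclei. For Cdc45 the thinned shares were 7.93 and 6.61% of activated, 1.09 and 1.87% of resting and 1.18 and 1.26% of endothelial nuclei.

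Over the 6 classes of libraries 3 and 4, the genes most like Postn in pattern were Bnc2, Srpx2, Fbln2, Loxl1 and Phlda3, with Pearson correlations of 0.987, 0.970, 0.964, 0.961 and 0.959 over 12 points that share libraries and depth. Postn is a gene of the rule, so its level in the activated points was set by the choice of nuclei, and the correlations are a description. Bnc2 stood at 561 and 455 CPM in activated nuclei and 191 and 131 CPM in resting nuclei, against 28.5 to 84.3 CPM in the other classes. Fbln2, encoding fibulin-2, stood at 834 and 604 CPM in activated nuclei, against 551 and 379 CPM in resting nuclei, 1.51-fold (1.39 to 1.64) and 1.59-fold (1.41 to 1.80) higher.

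Set against each other, the activated nuclei of the libraries differed in few genes that were both well counted and led by fibroblasts. Of 11717 genes tested, 66 (0.563%) were at least 2-fold higher and 131 (1.12%) at least 2-fold lower in library 3 than in library 4. Of these, 3 higher and 1 lower gene were also highest in fibroblasts with 100 or more UMIs. Thbs4, encoding thrombospondin 4, stood at 57.1 CPM in library 3 and 19.6 CPM in library 4, 2.91-fold (2.06 to 4.20) higher. Without nuclei that held 3 or more UMIs of another class its difference changed sign, to -0.30 in log2(CPM + 10), and it was 0.50 without nuclei holding a dividing-cell UMI and 0.57 at 1000 UMIs per nucleus, against 1.18 as reported. Tex22 stood at 38.7 and 10.3 CPM in libraries 3 and 4, and Gabre, a GABA receptor subunit, at 22.1 and 5.69 CPM. Asic2, an acid-sensing channel, stood at 28.1 CPM in library 3 and 81.2 CPM in library 4. Hmga2 of the rule had a library ratio of 0.581 and Rai14 one of 0.608, whereas Tnc had 0.920, Kif26b 0.967 and Cdc45 1.08. Col1a1, Col3a1 and Fn1 had ratios of 1.46, 1.55 and 1.73, higher in library 3. Resting nuclei leaned the same way, at 1715 CPM of Col1a1 in library 3 and 1249.8 CPM in library 4. So did Col1a1 in macrophage nuclei, at 754 and 369 CPM, and in endothelial nuclei, at 573 and 265 CPM. In mural nuclei it stood at 793 and 386 CPM and in cardiomyocyte nuclei at 640 and 379 CPM. Col3a1 was higher in library 3 in all of these classes too, so this lean was not particular to fibroblasts. Time, treatment and preparation cannot be told apart between the libraries.

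Some members held more endothelial than fibroblast RNA. In library 3, 36 members (2.42%, 1.70 to 3.33%) and in library 4, 45 (9.51%, 7.02 to 12.5%) held 4 or more endothelial marker UMIs that outnumbered their fibroblast marker UMIs, against 1.05 and 3.30% of resting nuclei. Counting macrophage, mural and cardiomyocyte markers as well, 122 members (8.20%, 6.85 to 9.71%) and 119 members (25.2%, 21.3 to 29.3%) held more UMIs of another class than of the fibroblast markers, against 3.77 and 9.91% of resting nuclei. In the 36 and 45 members rich in endothelial RNA, Col8a1 of the rule stood at 2689 and 2829 CPM, against 2413 and 2583 CPM in all other members. Endothelial nuclei held it at 255 and 201 CPM, a gap that is no result, since the rule chose the members on this gene. The values that follow are likewise for these 36 and 45 members. Pdgfra stood at 170.3 and 104 CPM, against 579 and 429 CPM in other members, and Col1a1 at 466 and 418 CPM, against 1969 and 1478 CPM in other members, but both are fibroblast markers, so the choice of these nuclei made them low. Nrg1 had 519.9 and 898 CPM in them, against 27.0 and 76.5 CPM in other members, and endothelial nuclei had 341 and 276 CPM. Reln, encoding the guidance protein reelin, had 834 and 672 CPM in them, against 48.5 and 78.9 CPM in other members, and endothelial nuclei had 203 and 184 CPM. Nrg1 and Reln were thus higher in these nuclei than in endothelial nuclei as a whole, while Tnc, at 197 and 275 CPM, lay below the other members, at 451 and 519.8 CPM. These nuclei are given no cell type here. Without them, 98 genes were called higher and 126 lower, of which 87 and 120 were among the 90 and 130, and the genes differing between libraries numbered 114, not 197.

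**Figure D5:**
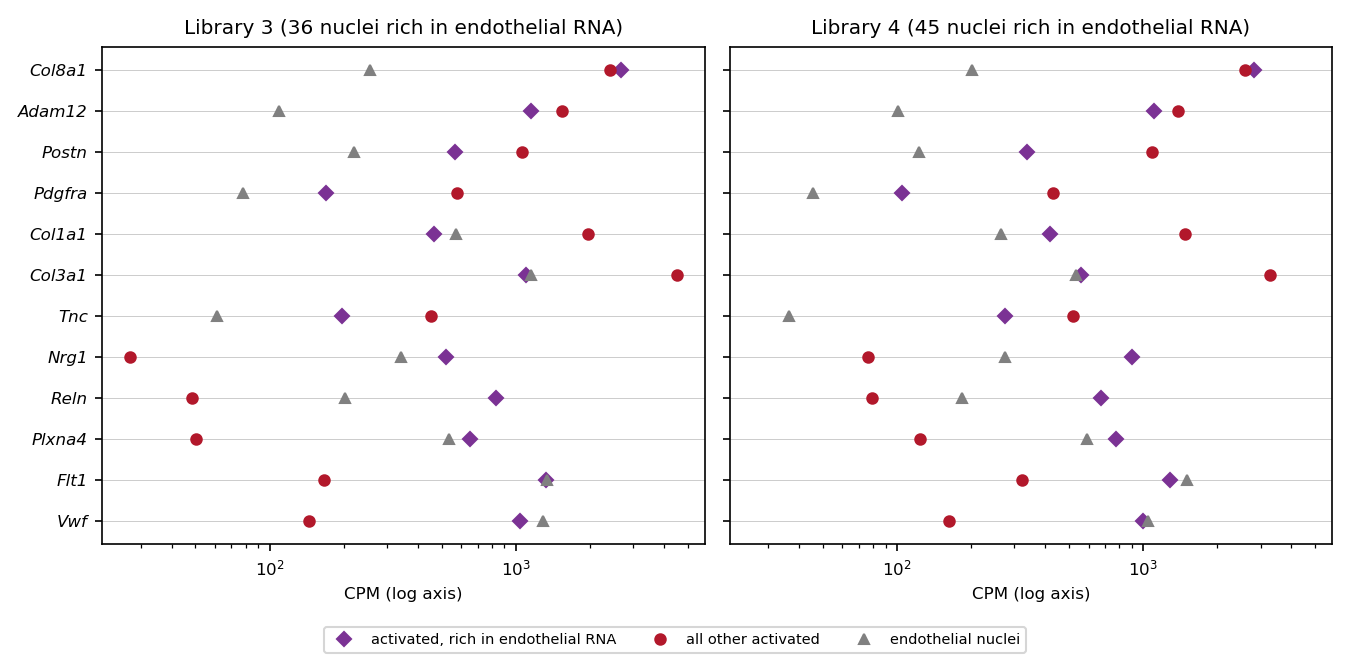
CPM (log axis) of 12 genes in activated nuclei rich in endothelial RNA (purple diamonds), all other activated nuclei (red circles) and endothelial nuclei (grey triangles), for library 3 (left) and library 4 (right). Flt1 and Vwf, as endothelial markers, and Pdgfra, Col1a1 and Col3a1, as fibroblast markers, took part in choosing the purple nuclei, so their places are set by that choice. Col8a1, Adam12 and Postn are genes of the rule that chose all activated nuclei, so their places against endothelial nuclei are no result. Nrg1 and Reln, which took part in neither choice, lie above both other groups.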

How the data were processed

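The deposited matrix holds raw UMI counts per gene and nucleus for 32623 genes and 48637 barcodes of 4 libraries, made with Cell Ranger 5.0.1, per the file headers. Per the submitters' processing notes, the tools were Cell Ranger 6.1.1 and Seurat with rn7 as genome, so the build behind the counts is unsettled, and no coordinates of the files were used. Nuclei were isolated by homogenisation and profiled with a Chromium 3′ kit, per the labels' protocols.

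For each library and class, UMIs of all nuclei were added up and scaled to CPM, with 4625572 and 1934191 UMIs behind the activated nuclei of libraries 3 and 4 and 1235430 and 932937 behind the resting nuclei. Intervals are exact Poisson for CPM, conditional binomial for ratios and Clopper-Pearson for shares. They cover counting error only, since nuclei of a library are not replicates. The members, the marker sets and the 22 gene lists were chosen with earlier results of these data known. Of 565 list symbols, 17 were not matched to a single row and are not analysed here. Genes named singly are the 16 highest and 12 lowest by the smaller of the differences in both libraries, with at least 100 UMIs in the higher class and no higher level in another class, plus the 2 highest and 2 lowest of each list, 12 genes always named and the 5 most like Postn. Ccnd1, Cd34, Col5a2, Col5a3, Itga5, Mgp, Reln, Smad7, Tbx20, Tgfb2, Tgfbr2, Thbs1, Tmeff2 and Vcl were named after their values were seen. Some genes that the rule names are not reported here. Doublets were kept as the rule has it, and removing the highest scrublet scores was an alternative. Steps ran in Python 3.11.15 with numpy 2.4.6, scipy 1.17.1 and scanpy 1.11.5, and the comparison was tested on simulated counts. No test was made, since each library is 1 sample. Alternatives were the filters, scaling, pseudocount, thinning to 1000 UMIs and removal of mixed nuclei, besides 3 added after seeing the data. Those 3 removed free RNA, nuclei rich in endothelial RNA and nuclei with a dividing-cell UMI. RefSeq's promoter table of the assembly GRCr8 gave the sequences.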

Additional observations from a re-analysis of the deposited data

Results flagged for a closer look

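By the same rule, 45 nuclei of library 1 and 922 nuclei of library 2 also counted as activated fibroblasts. They lie outside the comparisons above, which use libraries 3 and 4. They made up 2.48% (1.82 to 3.31%) and 87.9% (85.8 to 89.8%) of the activated and resting nuclei of those libraries. Their median depths were 1321 and 940 UMIs, and their levels of Adam12 were 988 and 1783 CPM. Library 1 held 1769 resting nuclei and library 2 held 127. No label ties either library to sham or infarction.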

How the results depend on the processing

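The share of activated among both classes was 72.5 and 50.3% in libraries 3 and 4 without nuclei holding 3 or more UMIs of another class, and 70.3 and 50.7% without nuclei with a dividing-cell UMI. Removing nuclei with UMIs of another class left 71 genes higher, 37 of them among the 90, and 86 genes lower, 60 of them among the 130. It left 334 genes differing between libraries and put Thbs4 at -0.30, library 3 minus library 4. Without nuclei rich in endothelial RNA, 114 genes differed between libraries. A pseudocount of 1 CPM gave 197 genes higher and 618 between libraries. At 4-fold, 2 genes were higher and 10 lower. Subtracting free RNA gave 593 higher and 347 lower, with 89 and 123 of the main calls among them, and put the median of all genes at 0.14 and 0.13. The causes were not tested. Of the other main values, 34 stayed within their bounds. Of the list medians, 215 stayed and 27 moved, and of the named differences between classes, 1094 stayed and 192 moved. Of the named differences between libraries, 36 stayed, 7 moved and 1 changed sign, that of Thbs4. Between classes, changes of sign were counted only for called genes and for list medians past a set distance from that of all genes. None was found between classes. Uncalled genes could change sign, such as Irf1, whose difference ran from -0.059 to 0.264 over the settings. No paired analysis was possible because each suffix is 1 library with no replicate number, and leaving out a replicate was not possible for the same reason. At these depths genes under 30 UMIs in either library could not be compared.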
